A study of Mus musculus with 20 samples.

Results

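The genes described are cyclins and the cyclin-dependent kinases that they activate in the main steps of the cell cycle, in pancreatic islets of obese mice. They were taken by gene symbol: the D-type cyclins Ccnd1, Ccnd2 and Ccnd3, the E-type cyclins Ccne1 and Ccne2, the S-phase and mitotic cyclins Ccna2, Ccnb1 and Ccnb2, and the kinases Cdk1 and Cdk2. Of these 10 genes, 9 had a probe with their name and 1 probe each, among 26159 genes in all. Ccnb1 is not analysed here. Of the 9, 8 passed the filter on dim genes and entered the test with 18311 genes. Ccne2 had a mean log2 intensity of 4.64 over the 20 arrays, under the limit of 4.83, and is described by its levels and from a fit without the filter.

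The mice were males of the strain labelled B6.V-Lep ob/ob, which lack functional leptin and become obese. The HFD_18wk group had 18 weeks of the diet labelled HFD, and the CRD_18wk group had the same 18 weeks followed by 2 days of the diet labelled CRD. The HFD_39wk and CRD_39wk groups were the same pair at 39 weeks, and each group held 5 mice with 1 array per mouse. The labels do not spell out the diet names. They give the same number for age and for weeks of feeding, so age and time on the diet cannot be told apart. All 4 groups carried the ob/ob genotype and had been fed HFD, and no lean mice or mice without HFD are among these arrays. Hormone genes of the islet were bright, with Gcg (glucagon) at a mean log2 intensity of 14.81 and Sst (somatostatin) at 14.56 in HFD_18wk. Every level below is a log2 intensity of a 1-colour Agilent array, and every change is a difference of log2 group means with its standard error (SE).

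A cyclin-dependent kinase is inactive until a cyclin binds it. D-type cyclins work with CDK4 and CDK6 early in the cycle and start the inactivation of the retinoblastoma protein. E-type cyclins with CDK2 open S phase, cyclin A2 acts in S phase and G2 with CDK2 and CDK1, and B-type cyclins with CDK1 drive mitosis. Beta cells of adult mice divide rarely, and in mice cyclin D2 is the D-type cyclin needed for beta-cell growth after birth.

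The promoters of 4 members are printed to set the letters near their starts beside their changes. RefSeq windows (GRCm38.p6) were searched on both strands over 300 bases, from 250 before to 50 after the gene start, and 6 of the 10 genes had a window. The motifs were the CCAAT box (CCAAT), the cell cycle homology region or CHR (TTTGAA or TTTAAA) and an E2F site (TTTCGCGC, TTTGGCGC, TTTCCCGC or TTTGCCGC). CCAAT boxes are bound by NF-Y, the CHR by MuvB complexes, and both are known from promoters of genes expressed late in the cycle. Printed below are 220 bases before to 30 after the start, 5′ to 3′ on the gene's strand, with matching letters in capitals. All 4 genes lie on the minus strand, at chr10:69352883-69353132 (Cdk1), chr9:70421525-70421774 (Ccnb2), chr7:38107461-38107710 (Ccne1) and chr10:128705022-128705271 (Cdk2). Cdk1 and Ccnb2 are shown as mitotic members that moved together, Ccne1 as an E-type cyclin and Cdk2 as a kinase with no call.
Cdk1: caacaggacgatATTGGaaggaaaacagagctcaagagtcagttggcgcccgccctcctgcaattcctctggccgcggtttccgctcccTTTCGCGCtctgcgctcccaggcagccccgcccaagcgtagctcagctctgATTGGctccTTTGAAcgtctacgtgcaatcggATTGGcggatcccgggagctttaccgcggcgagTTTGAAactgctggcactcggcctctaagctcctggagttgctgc
Ccnb2: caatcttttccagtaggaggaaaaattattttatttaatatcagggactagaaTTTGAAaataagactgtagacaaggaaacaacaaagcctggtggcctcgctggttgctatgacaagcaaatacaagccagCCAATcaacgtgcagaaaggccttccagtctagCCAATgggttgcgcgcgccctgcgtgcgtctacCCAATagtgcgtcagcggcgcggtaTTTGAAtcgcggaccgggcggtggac
Ccne1: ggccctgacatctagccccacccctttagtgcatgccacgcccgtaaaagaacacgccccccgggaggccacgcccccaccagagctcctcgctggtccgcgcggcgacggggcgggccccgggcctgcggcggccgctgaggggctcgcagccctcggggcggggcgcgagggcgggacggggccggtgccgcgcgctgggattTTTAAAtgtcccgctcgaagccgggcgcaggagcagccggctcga
Cdk2: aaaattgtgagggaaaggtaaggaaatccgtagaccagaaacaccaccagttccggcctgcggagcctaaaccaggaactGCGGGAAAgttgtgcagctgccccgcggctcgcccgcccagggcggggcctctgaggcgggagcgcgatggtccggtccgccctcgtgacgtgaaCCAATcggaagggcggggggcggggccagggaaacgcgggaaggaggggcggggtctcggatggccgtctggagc
Cdk1 and Ccnb2 each held 3 CCAAT boxes and 2 CHR matches. At least 2 CCAAT boxes together with a CHR occurred in 3.13% of 32851 windows. The Cdk1 window also held 1 E2F match, at positions -131 to -124 from the start, where 2.26% of windows held any. Ccne1 held a CHR match at positions -15 to -10 and no CCAAT box, and Cdk2 held 1 CCAAT box and 1 E2F match with no CHR. Single motifs were common, with a CCAAT box in 37.4% of windows and a CHR in 27.6%. Ccnb1 had 2 CCAAT boxes and 1 CHR. Ccnd3 had 2 windows, with no match in one and 1 CCAAT box in the other. A match describes letters in the window and does not show that a factor binds there.

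**Figure D1:**
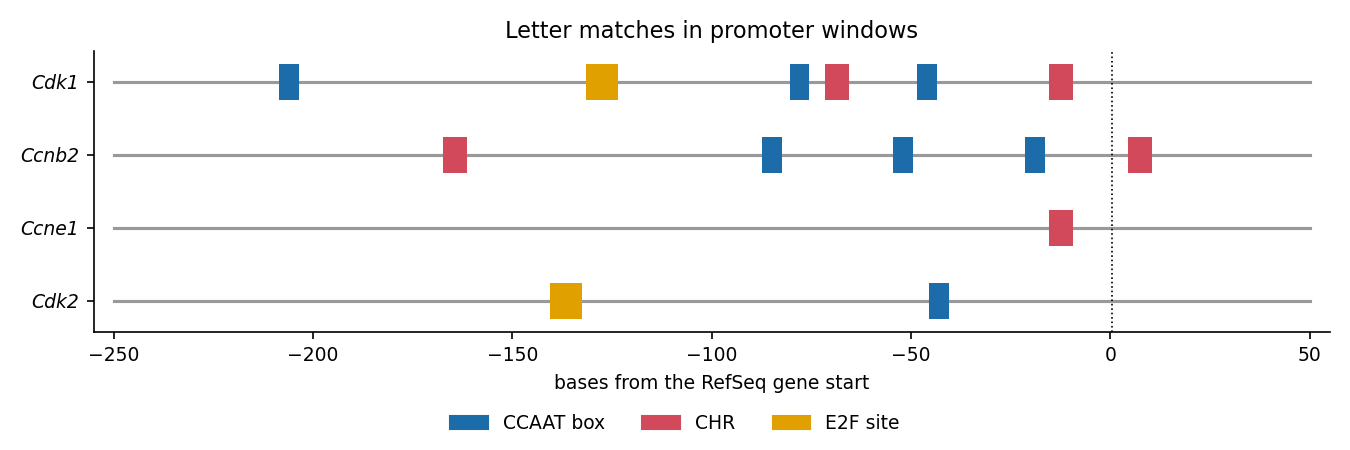
Positions of CCAAT boxes, CHR and E2F matches in the promoter windows of 4 genes; the x axis gives bases from the RefSeq gene start (dotted line) and each box is 1 match on either strand. Cdk1 and Ccnb2 each carry 3 CCAAT boxes and 2 CHR matches, Ccne1 carries 1 CHR and Cdk2 carries 1 CCAAT box and 1 E2F match.

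The 20 arrays fell into 3 array sets, A, B and C, by their correlation on 1320 chemosensory receptor genes (0.925 to 0.979 within sets and 0.848 to 0.917 between them). No label records these sets. In the order HFD_18wk, CRD_18wk, HFD_39wk and CRD_39wk, 4, 1, 3 and 4 arrays belonged to set A, 1, 4, 1 and 0 to set B, and 0, 0, 1 and 1 to set C. The 18-week diets were thus split almost as the sets were, and changes are also given from a fit with array set terms, called the blocked fit. The intensities were quantile normalized by the authors, and no 2 arrays were identical.

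After 2 days of CRD, the mitotic genes Ccna2, Ccnb2 and Cdk1 went from dim levels on HFD to levels far above them at both ages, and Ccne1 rose with them. Ccnd2 fell at both ages. Ccnd3 rose at 18 weeks, a call that was lost in the blocked fit (0.46, adjusted p = 0.23) and without either of 2 HFD arrays. Cdk2 and Ccnd1 did not pass at either age. At 18 weeks 5 of the 8 members tested rose and 1 fell, where 17.0% of all genes tested rose and 7.89% fell (24.9% in either direction). At 39 weeks 4 of 8 rose and 1 fell, where 3.50% of all genes rose and 4.84% fell (8.34% in either direction). Ccna2, Ccnb2 and Cdk1 passed the filter through their CRD arrays and had to differ, so these counts describe the genes that passed and support nothing. Calls are those of limma with Benjamini-Hochberg adjustment at 0.05. In RNA of whole islets, a change in the number of cells of a type and a change in RNA per cell cannot be told apart.

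**Figure D2:**
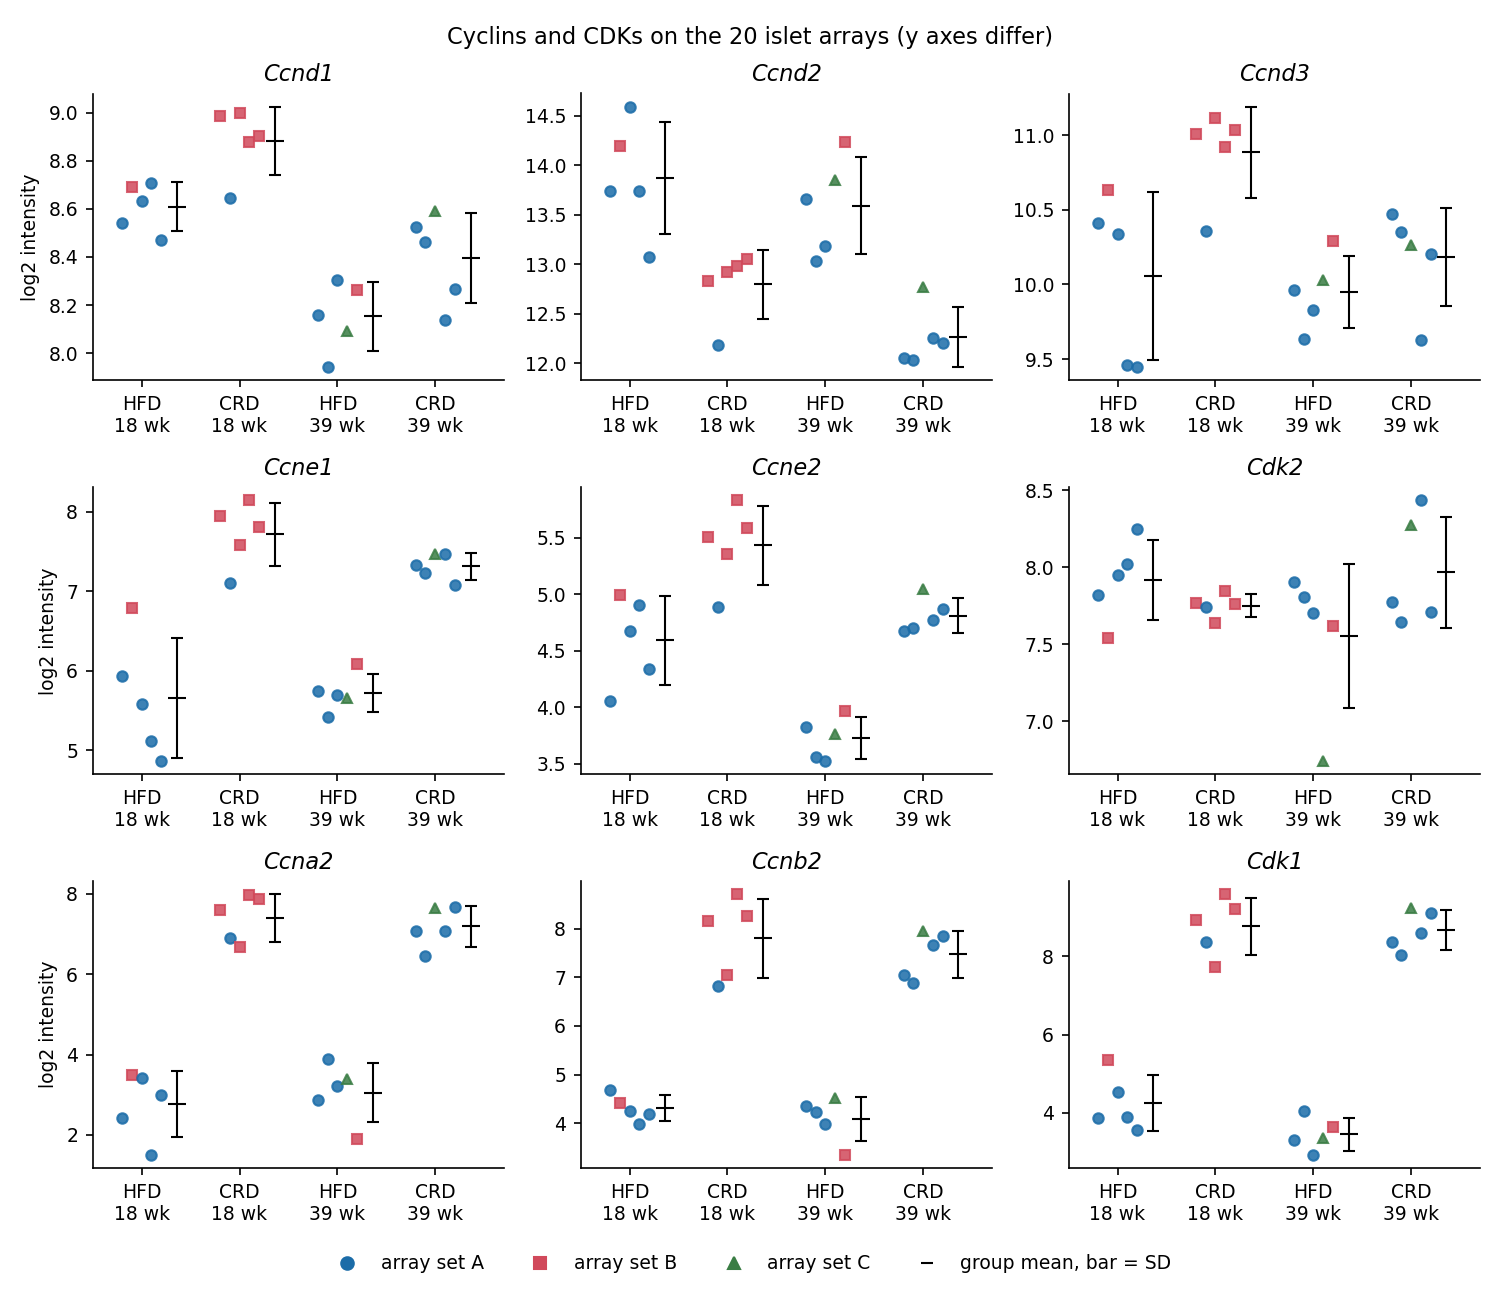
Log2 intensity of the 9 measured genes on the 20 arrays, by group, with symbols for the array set and a bar for the group mean and standard deviation (n = 5); the y axes differ between panels. For Ccna2, Ccnb2, Cdk1 and Ccne1 every CRD array lies above every HFD array, and for Ccnd2 every CRD array lies below every HFD array of its own age.

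Cdk1 (chromosome 10, 69335146 to 69352912), the kinase that drives entry into mitosis, was at 3.86, 5.35, 4.54, 3.89 and 3.57 in HFD_18wk replicates 1 to 5. In CRD_18wk it was at 8.93, 8.36, 7.74, 9.59 and 9.23. Every CRD array lay above every HFD array, and the lowest CRD array was replicate 3. The rise was 4.53 ± 0.36 (SE; adjusted p = 5.76e-08), from a mean of 4.24 ± 0.71 (SD, n = 5) to 8.77 ± 0.73. At 39 weeks Cdk1 was at 3.29, 4.05, 2.92, 3.36 and 3.64 on HFD and at 8.38, 8.03, 9.24, 8.61 and 9.11 after CRD. The groups were again apart, with CRD_39wk replicate 2 lowest and replicates 3 and 5 highest after CRD. The rise was 5.22 ± 0.36 (adjusted p = 1.8e-08), a linear ratio of 37.4, beside 23.1 at 18 weeks. In the blocked fit the rises were 4.09 ± 0.37 and 5.37 ± 0.33. Within set A the difference was 4.40 at 18 weeks, resting on 1 CRD array, and 5.11 at 39 weeks.

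Ccna2 (chromosome 3, 36564865 to 36573038), the cyclin of S phase and G2, read 2.43, 3.49, 3.41, 1.5 and 2.99 in HFD_18wk. In CRD_18wk it read 7.60, 6.89, 6.67, 7.97 and 7.87. No CRD array came near the HFD range, and replicates 4 and 5 were highest. Its rise was 4.64 ± 0.39 (adjusted p = 1.06e-07). In HFD_39wk it read 2.86, 3.88, 3.21, 3.38 and 1.91, and in CRD_39wk 7.09, 6.46, 7.64, 7.07 and 7.68. The rise there was 4.14 ± 0.39 (adjusted p = 6.54e-07), again with no overlap. Both rises passed in the blocked fit, at 4.59 and 4.16.

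Ccnb2 (chromosome 9, 70407689 to 70421554), a B-type cyclin that partners CDK1, was at 4.69, 4.42, 4.26, 3.98 and 4.19 in HFD_18wk. After CRD at 18 weeks it was at 8.16, 6.83, 7.04, 8.70 and 8.26. The CRD arrays spread over a wider range than the HFD arrays, with replicates 2 and 3 lowest as for Ccna2 and Cdk1. Its rise was 3.49 ± 0.32 (adjusted p = 3.04e-07). At 39 weeks the levels were 4.36, 4.23, 3.99, 4.53 and 3.35 on HFD and 7.05, 6.88, 7.95, 7.66 and 7.84 after CRD. That rise was 3.39 ± 0.32 (adjusted p = 7.2e-07), and all CRD arrays were above all HFD arrays. Within set A the differences were 2.55 at 18 weeks and 3.16 at 39 weeks.

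All HFD levels of Ccna2 and Ccnb2, and all of Cdk1 except HFD_18wk replicate 2, lay under the mean that the filter on dim genes required, so these 3 genes entered the test through their CRD arrays. The background level of the intensities is unknown, and the size of these folds depends on it. With 16 added to each intensity before the log, Cdk1 rose by 3.67 ± 0.29 at 18 weeks and 3.97 ± 0.29 at 39 weeks. Ccna2 then rose by 2.99 ± 0.24 and 2.71 ± 0.24, and Ccnb2 by 2.74 ± 0.28 and 2.55 ± 0.28. All 3 passed the test at both ages with this offset as without it. They entered it through their CRD arrays, so these calls support nothing.

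Ccne1 (chromosome 7, 38097984 to 38107490), an E-type cyclin that activates CDK2 at the start of S phase, read 5.93, 6.79, 5.58, 5.12 and 4.86 in HFD_18wk. In CRD_18wk it read 7.95, 7.11, 7.58, 8.14 and 7.81. The highest HFD array, replicate 2, is the set B array of its group, and the lowest CRD array, also replicate 2, is the set A array of its own. The rise was 2.06 ± 0.28 (adjusted p = 3.15e-05) without the block and 1.53 ± 0.23 (adjusted p = 0.000139) with it. In HFD_39wk it read 5.75, 5.42, 5.70, 5.65 and 6.09, and in CRD_39wk 7.33, 7.22, 7.47, 7.48 and 7.07. The rise at 39 weeks was 1.59 ± 0.28 (adjusted p = 0.000769), with no overlap between the groups.

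Ccne2 (chromosome 4, 11190433 to 11204779), the second E-type cyclin, moved less. It ranged from 4.06 to 5.00 in HFD_18wk and from 4.89 to 5.83 in CRD_18wk, so these groups overlapped. It ranged from 3.53 to 3.97 in HFD_39wk and from 4.67 to 5.05 in CRD_39wk, without overlap. In the fit without the filter it rose by 0.84 ± 0.19 at 18 weeks (adjusted p = 0.0057) and by 1.08 ± 0.19 at 39 weeks (adjusted p = 0.00145). In that fit 6 of 9 members rose and 1 fell at 18 weeks, where 13.3% of all genes rose and 5.77% fell, and 5 of 9 rose and 1 fell at 39 weeks, where 2.93% and 3.26% did. In the blocked fit without the filter, the rise at 18 weeks was 0.53 ± 0.17 and did not pass (adjusted p = 0.0621), and that at 39 weeks was 1.19 ± 0.15 (adjusted p = 4.99e-05). With 16 added before the log and no filter, the rises were 0.558 ± 0.117 and 0.591 ± 0.117 (adjusted p = 0.00288 and 0.00344).

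Cdk2 (chromosome 10, 128697938 to 128705051), the kinase partner of cyclins E and A, ranged from 7.54 to 8.25 in HFD_18wk and from 7.64 to 7.84 in CRD_18wk. The difference was -0.17 ± 0.21 (adjusted p = 0.562), with a 95% interval of -0.61 to 0.28. At 39 weeks it ranged from 6.74 to 7.91 on HFD and from 7.65 to 8.44 after CRD. That difference was 0.41 ± 0.21 (adjusted p = 0.29), with an interval of -0.03 to 0.86. It was 0.08 within set A and 1.53 between the single arrays of set C, of which HFD_39wk replicate 4 was the lowest Cdk2 reading of all 20 arrays.

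Of the D-type cyclins, Ccnd2 fell at both ages; differences between these genes were not tested. Ccnd2 (chromosome 6, 127125162 to 127152188) was at 13.74, 14.20, 14.59, 13.74 and 13.08 in HFD_18wk and at 12.83, 12.19, 12.93, 12.99 and 13.06 in CRD_18wk. All CRD arrays were below all HFD arrays, narrowly for HFD_18wk replicate 5 against CRD_18wk replicate 5. It fell by 1.07 on the log2 scale (SE 0.27, adjusted p = 0.00767), a 2.10-fold decrease, and the change with the block was -1.50 ± 0.24 (adjusted p = 0.000286). At 39 weeks it was at 13.66, 13.03, 13.19, 13.85 and 14.23 on HFD and at 12.05, 12.03, 12.77, 12.26 and 12.21 after CRD. The groups did not overlap, and the change was -1.33 ± 0.27 (adjusted p = 0.00318), or -1.19 ± 0.21 with the block. Within array sets Ccnd2 was lower after CRD in all 4 comparisons that could be made, by 1.60 (set A) and 1.25 (set B) at 18 weeks and by 1.15 (set A) and 1.08 (set C) at 39 weeks. All of these except set A at 39 weeks have an arm of 1 array, and in set A alone Ccnd2 did not pass at 18 weeks (adjusted p = 0.103) or 39 weeks (adjusted p = 0.0506).

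Ccnd3 (chromosome 17, 47505051 to 47599689), another D-type partner of CDK4 and CDK6, read 10.41, 10.63, 10.34, 9.46 and 9.45 in HFD_18wk and 11.01, 10.36, 11.12, 10.92 and 11.03 in CRD_18wk. The groups overlapped through CRD_18wk replicate 2, and the HFD arrays split between replicates 4 and 5 and the rest. The rise of 0.83 ± 0.24 passed (adjusted p = 0.0173) but not in the blocked fit (0.46 ± 0.23, adjusted p = 0.23). It did not pass without HFD_18wk replicate 4 (0.68, adjusted p = 0.0629) or without replicate 5 (0.68, adjusted p = 0.0596) either. At 39 weeks the levels ran from 9.63 to 10.29 on HFD and from 9.63 to 10.47 after CRD, a difference of 0.24 ± 0.24 (adjusted p = 0.657; interval -0.26 to 0.74).

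Ccnd1 (chromosome 7, 144929931 to 144939831), the third D-type cyclin, ranged from 8.47 to 8.71 in HFD_18wk and from 8.64 to 8.999 in CRD_18wk. Its difference was 0.27 ± 0.14 (adjusted p = 0.143; interval -0.01 to 0.56). At 39 weeks it ranged from 7.94 to 8.31 on HFD and from 8.14 to 8.59 after CRD, a difference of 0.24 ± 0.14 (adjusted p = 0.349; interval -0.05 to 0.53). The diet groups overlapped at both ages.

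In the blocked fit 4 of 8 members rose and 1 fell at each age, Ccnd3 being the one lost at 18 weeks. There 6.89% of all genes rose and 5.97% fell at 18 weeks, and 7.49% rose and 7.79% fell at 39 weeks. In set A alone 4 of 8 members (Ccna2, Ccnb2, Cdk1 and Ccne1) rose at 39 weeks, where 2.33% of all genes rose. At 18 weeks their differences within set A were 4.31, 2.55, 4.40 and 1.73. The 18-week CRD arm of set A is 1 array, assumed in the fit to vary like the other groups. Ccna2, Ccnb2 and Cdk1 entered these tests through their CRD arrays and had to differ. The counts in the blocked fit and in set A therefore describe the genes that passed and support nothing. Of the 9 genes with a level, Ccna2, Ccnb2, Cdk1 and Ccne1 lay higher without overlap at 18 weeks, where 6.46% of all genes did, and Ccnd2 lower, where 2.45% did. At 39 weeks Ccne2 joined them, where 3.45% of all genes lay higher without overlap and 6.66% lower. The shares without overlap cover all 26159 genes, without the filter. The members were chosen with earlier results of these data known, so these shares only describe the levels.

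**Figure D3:**
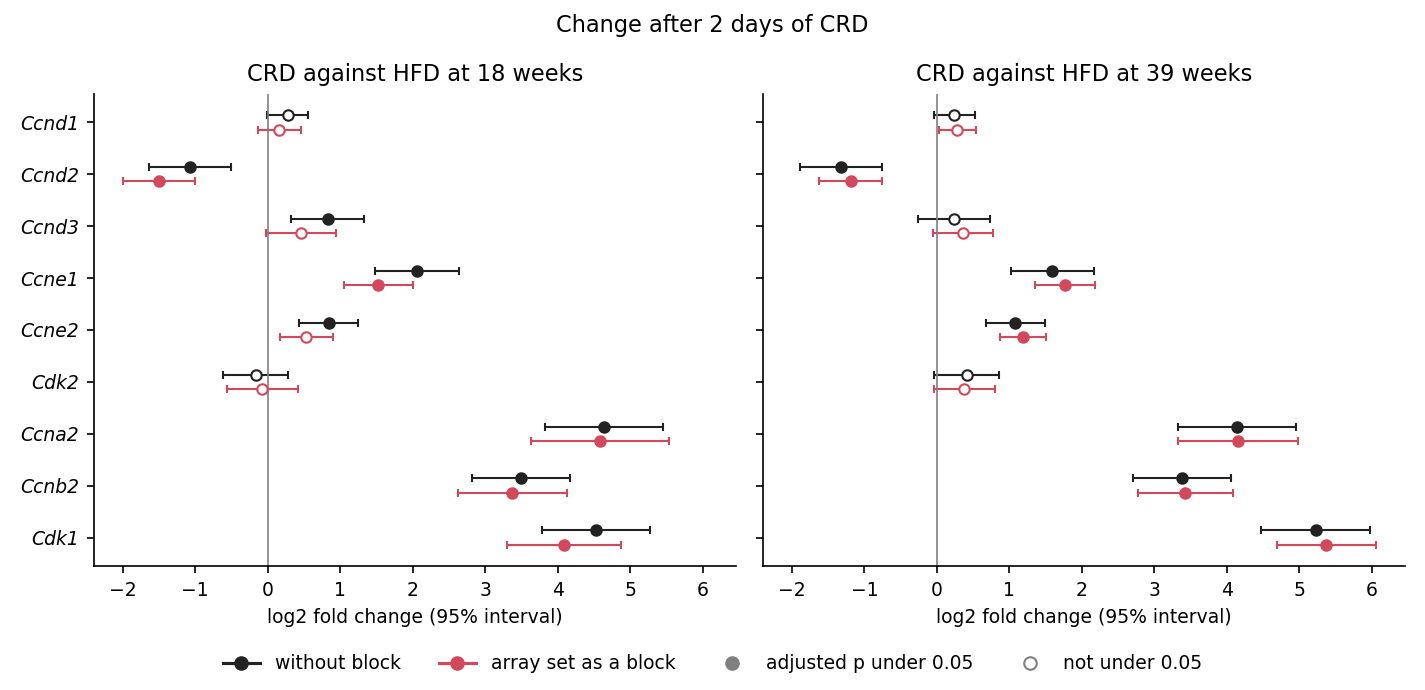
Log2 fold change after CRD against HFD with its 95% interval, at 18 weeks (left) and 39 weeks (right), without array set terms (black) and in the blocked fit (red); filled points had an adjusted p under 0.05, and Ccne2 is from the fits without a filter. Cdk1, Ccna2 and Ccnb2 lie above 3 in every fit drawn, Ccne1 between 1.53 and 2.06, and Ccnd2 below -1.

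Between 39 and 18 weeks on HFD, 0 of 8 members passed in limma, 2 had an unadjusted p under 0.05 and 0.0928% of all genes were called. Ccnd1 was lower in every HFD_39wk array than in any HFD_18wk array, by -0.46 ± 0.14 (adjusted p = 0.211), and 0.797% of the genes tested were lower without overlap in this comparison. Its difference was -0.45 within set A and -0.43 between the single arrays of set B. Ccne2 was likewise lower without overlap, by -0.87 ± 0.19 in the fit without the filter (adjusted p = 0.0948). The share of 0.797% does not cover Ccne2, which lay under the filter. With 16 added before the log Ccne2 differed by -0.465 ± 0.117 (adjusted p = 0.112). In the blocked fit without the filter it passed (-0.91 ± 0.15, adjusted p = 0.0473), where 0.183% of all genes were called. Cdk1 differed by -0.79 ± 0.36 (adjusted p = 0.727). Its levels lay under the limit of the filter on every HFD array except HFD_18wk replicate 2 (5.35).

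Between 39 and 18 weeks after CRD, 0 of 8 members passed, 2 had an unadjusted p under 0.05 and 0.0273% of all genes were called. Ccnd1 was lower without overlap (-0.49 ± 0.14, adjusted p = 0.100), as 3.68% of the genes tested were, and differed by -0.36 ± 0.16 with the block. Ccnd3 differed by -0.70 ± 0.24 (adjusted p = 0.100), and by -0.24 ± 0.25 with the block. Ccne2 differed by -0.62 ± 0.19 in the fit without the filter (adjusted p = 0.0862), and by -0.26 ± 0.19 with the block added. The median over all genes was itself -0.18 here, beside -0.36 for the 8 members. Set B held 4 CRD_18wk arrays and no CRD_39wk array. Without CRD_18wk replicate 2, the only set A array of its group, both Ccnd1 (-0.55, adjusted p = 0.0143) and Ccnd3 (-0.84, adjusted p = 0.020) passed. So did 6466 of the 18311 genes tested. In that setting no array set held arrays of both CRD groups, so age and array set cannot be told apart. The mitotic genes did not pass between the ages after CRD, with intervals of -0.84 to 0.65 for Cdk1, -1.03 to 0.61 for Ccna2 and -0.998 to 0.35 for Ccnb2.

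**Figure D4:**
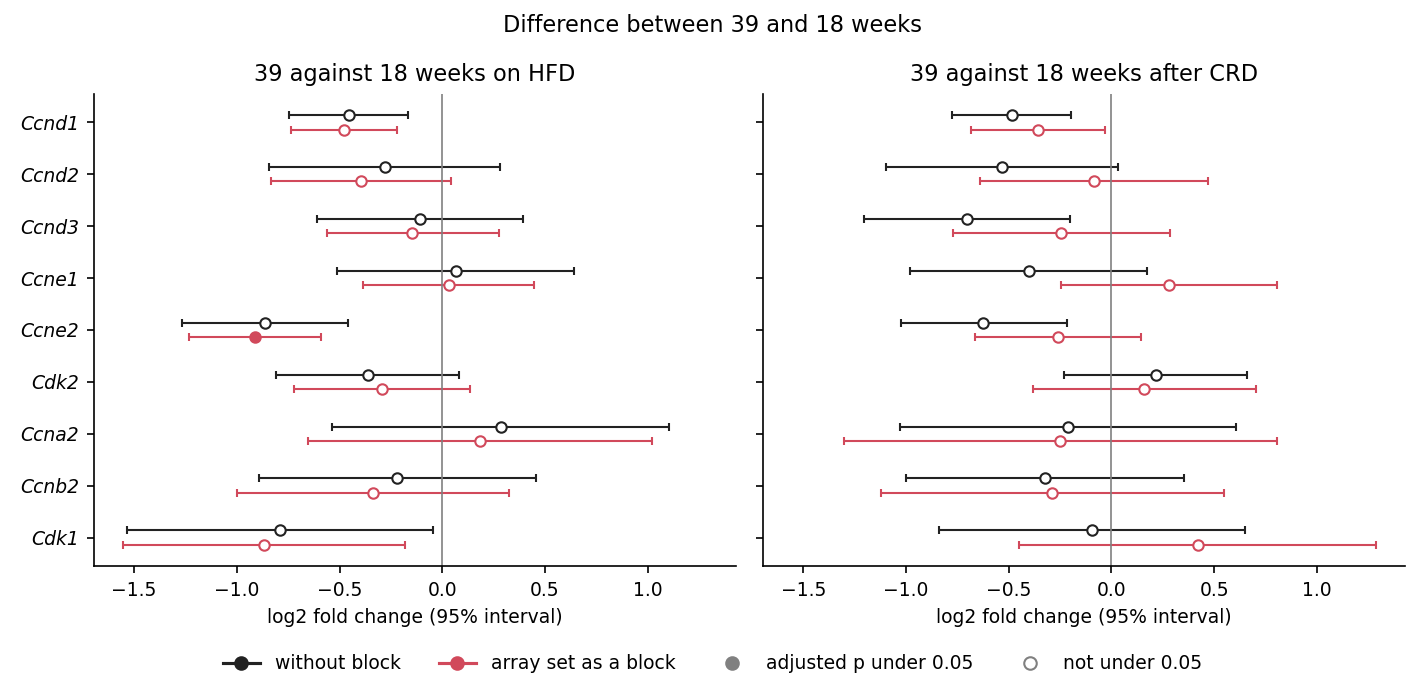
Log2 difference of 39 against 18 weeks with its 95% interval, on HFD (left) and after CRD (right), without array set terms (black) and in the blocked fit (red); the filled point, Ccne2 on HFD with the block and no filter, had an adjusted p under 0.05. Ccnd1 lies below 0 in all fits drawn, and the intervals of Ccna2 and Ccnb2 include 0.

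The difference between the diet effects at the 2 ages was tested for itself. It passed for 0 of 8 members, 0 had an unadjusted p under 0.05 and 0% of all genes were called. For Cdk1 it was 0.69 ± 0.51 (39 minus 18 weeks; interval -0.36 to 1.75), and 1.29 ± 0.52 with the block (unadjusted p = 0.023, adjusted p = 1). This value rests on dim HFD levels and was 0.30 ± 0.41 with 16 added before the log. The value was -0.59 ± 0.34 for Ccnd3 and 0.58 ± 0.30 for Cdk2. For Cdk1, Ccna2, Ccnb2 and Ccne1 the group means stood in the order CRD_18wk, CRD_39wk and then both HFD groups. For Ccnd2 the order was HFD_18wk, HFD_39wk, CRD_18wk and CRD_39wk. In each of these orders neighbours of the same diet overlapped and did not pass the test between them.

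Other genes of the same machinery were grouped in lists. In the fit without array set terms no gene of these lists passed in either age comparison or in the difference between the diet effects. In the blocked fit Ccnt1, the cyclin of the elongation factor P-TEFb, was lower at 39 than at 18 weeks on HFD (-0.87 ± 0.19, adjusted p = 0.039; -0.91 ± 0.22 and 0.0801 without the block). The list counts below stand beside the shares of all genes given above for each fit, 17.0% higher and 7.89% lower at 18 weeks and 3.50% and 4.84% at 39 weeks without the block. Among 5 proliferation markers all 5 rose at both ages. Mki67, a nuclear protein of cycling cells, rose by 3.87 ± 0.38 and 3.57 ± 0.38, Top2a, the topoisomerase of replicating and mitotic chromosomes, by 5.09 and 4.79, and Birc5, the mitotic protein survivin, by 6.30 and 6.04. Birc5 was very dim on HFD (means of 1.99 and 1.77). Birc5, Cks2 and Cdc20 lay under the limit of the filter on every HFD array, so they too entered the test through their CRD arrays. With 16 added before the log Birc5 rose by 3.98 ± 0.31 and 3.61 ± 0.31, Cks2 by 2.74 ± 0.24 and 2.38 ± 0.24, and Cdc20 by 3.66 ± 0.30 and 3.43 ± 0.30 at 18 and 39 weeks.

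Of 7 tested activators and cofactors of the kinases, 5 rose at 18 weeks and 2 at 39 weeks, and 5 at each age in the blocked fit. The median change was 1.17 and 0.73. Cks2, a small subunit bound by CDK1 and CDK2, rose by 3.92 ± 0.33 and 3.69 ± 0.33. Its relative Cks1b rose by 2.31 ± 0.32 at 18 weeks, and the phosphatase Cdc25b, which removes inhibitory phosphates from CDKs, by 1.36 ± 0.26. Cdc25a, a phosphatase of the same family, rose by 1.17 ± 0.21 at 18 weeks (adjusted p = 0.000519) and 0.84 ± 0.21 at 39 weeks (adjusted p = 0.0138).

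Of 21 tested genes of cyclin destruction, 6 rose and 2 fell at 18 weeks and 3 rose at 39 weeks, with medians of 0.29 and -0.02. Cdc20, which directs the anaphase-promoting complex to mitotic cyclins, rose by 4.82 ± 0.39 and 4.68 ± 0.39. Ube2c, of the same list, was bright on HFD and did not rise. Its means were 12.17 on HFD and 11.26 after CRD at 18 weeks, and 12.32 and 12.10 at 39 weeks. The checkpoint gene Mad2l1 rose by 2.87 ± 0.46 and 1.53 ± 0.46. Its mean in HFD_18wk was 4.22, under the filter limit of 4.83, and its mean in HFD_39wk was 4.92. The complex subunits Anapc1 (1.29 ± 0.31 at 18 weeks) and Anapc10 (0.64 ± 0.19 at 39 weeks) rose at 1 age each, and Anapc1 missed the threshold in the blocked fit (0.65 ± 0.24, adjusted p = 0.0856). With the block 2 genes of the list rose at 18 weeks and 4 at 39 weeks, and 0 fell at either age.

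Inhibitors went both ways. Of 8 tested CDK inhibitors and inhibitory kinases, 4 rose and 1 fell at 18 weeks and 2 rose and 2 fell at 39 weeks. With the block 1 rose and 1 fell at 18 weeks, and 4 rose and 2 fell at 39 weeks. Pkmyt1, a kinase that holds CDK1 inactive until mitosis, rose by 2.27 ± 0.26 and 1.59 ± 0.26. Cdkn2c, an inhibitor of CDK4 and CDK6, rose by 1.08 ± 0.27 and 0.89 ± 0.27, and the first of these missed the threshold in the blocked fit (0.77 ± 0.28, adjusted p = 0.0852). Cdkn2d, of the same family, rose by 1.14 ± 0.32 at 18 weeks (0.56 with the block, adjusted p = 0.193), and Cdkn2b fell at 39 weeks (-0.91 ± 0.27, adjusted p = 0.0432).

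Of 19 tested pocket proteins, E2F factors and partners, 5 rose at 18 weeks and 2 at 39 weeks, with medians of 0.54 and 0.05. With array set terms 3 rose and 1 fell at 18 weeks and 3 rose at 39 weeks. E2f1 and E2f2, transcription factors that are released from the retinoblastoma protein to switch on S-phase genes, rose by 1.28 ± 0.29 and 1.36 ± 0.22 at 18 weeks and by 0.93 ± 0.29 and 0.80 ± 0.22 at 39 weeks. Lin9, a core subunit of the MuvB complex, rose by 1.496 ± 0.45 at 18 weeks and missed the threshold in the blocked fit (0.68 ± 0.38, adjusted p = 0.307).

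Most other cyclins and kinases did not pass. Of 18 other cyclins tested, 4 rose and 1 fell at 18 weeks and 1 fell at 39 weeks, with medians of 0.32 and -0.11. At each age 1 rose and 1 fell in the blocked fit, and these shares are near those of all genes. Those that rose at 18 weeks included Ccnh, the cyclin of the CDK-activating kinase (1.01 ± 0.25, and 0.70 with the block, adjusted p = 0.0564), Ccng1 (0.98 ± 0.29, and 0.41 with the block, adjusted p = 0.324) and Cntd1, a meiotic cyclin-like gene (1.29 ± 0.34). Cntd1 lay under the limit of the filter on every HFD_18wk array (highest 4.81), so it entered the test through other groups. Its means were 4.18 in HFD_18wk and 5.47 in CRD_18wk, and this rise supports nothing. Ccng2, a cyclin known from resting cells, fell at 39 weeks (-1.49 ± 0.34, adjusted p = 0.00822). All CRD_39wk arrays of Ccng2 lay under that limit (highest 4.24). It too entered through other groups, and its fall supports nothing. Of 18 other kinases, 2 rose and 1 fell at 18 weeks and 2 fell at 39 weeks, and 1 rose and 3 fell at each age in the blocked fit. Cdkl1 fell by 1.63 on the log2 scale at 18 weeks (SE 0.18) and changed by -1.27 ± 0.18 at 39 weeks, with Cdk12, a kinase of RNA polymerase II, at -0.87 ± 0.24. Cdk18 (0.95 ± 0.18) and Cdk11b (1.14 ± 0.31) rose at 18 weeks, the second not with the block (0.58, adjusted p = 0.173).

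**Figure D5:**
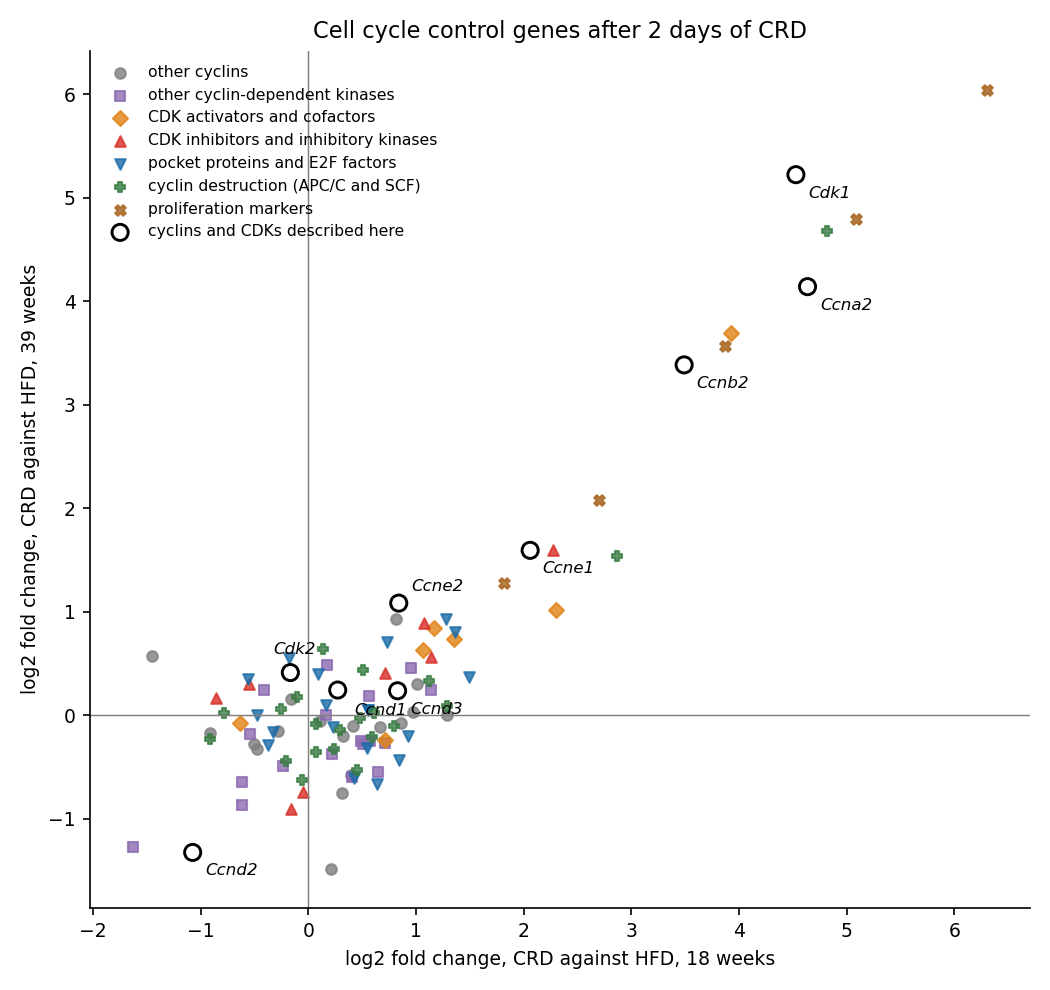
Log2 fold change after CRD against HFD at 18 weeks (x axis) and at 39 weeks (y axis) for the members (open circles with names) and the tested genes of 7 lists (symbols in the legend); each point is 1 gene, and the axes share no arrays. Cdk1, Ccna2 and Ccnb2 lie at the upper right with Birc5, Top2a, Mki67, Cdc20 and Cks2, while most other listed genes lie within 1 of 0 on the y axis.

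Likeness of profiles over all arrays carries the diet changes given above, so it describes them again and adds no support. By the root mean square difference of log2 profiles over the 20 arrays, after subtraction of each gene's mean, the genes most like Cdk1 were Cdc20 (0.36), the mitotic kinase Plk1 (0.45), Top2a (0.45), Cdca3 (0.47) and Uhrf1 (0.57). Among the members, Ccna2 and Cdk1 were nearest to each other (0.66), as were Ccnd1 and Ccnd3 (0.35). The genes most like Ccnd2 were Ctdspl (0.15), the calcium pump gene Atp2a2 (0.18), Gnai2 (0.21), Phactr1 (0.23) and Dhdh (0.24). No other member came as close to Ccnd2, the nearest being Ccnd1 at 0.81. Ccnd1 differed after CRD by 0.27 and 0.24, where Ccnd2 changed by -1.07 and -1.33. The points share their libraries and the 4 groups, so these values describe likeness across groups as well as within them.

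Markers of other cells were set beside these changes. The summed intensity of acinar markers (15 of 18 with a probe) was 1434 to 46020 in HFD_18wk and 7021 to 51450 in CRD_18wk, and 45870 to 81620 in HFD_39wk and 8259 to 47980 in CRD_39wk. Of 13 tested acinar markers 9 rose at 18 weeks, and 1 rose and 2 fell at 39 weeks, with medians of 2.46 and -2.31. At 18 weeks 1 acinar marker rose in the blocked fit, and at 39 weeks 1 rose and 3 fell. Their part in the changes of the members was not tested. The summed level of duct markers (5 of 7 with a probe) was 3746 to 9885 and 7147 to 16960 at 18 weeks, and 5476 to 9775 and 10630 to 12340 at 39 weeks, higher after CRD and without overlap at 39 weeks. Of 3 tested duct markers 1 rose at 18 weeks and 0 passed at 39 weeks (0 and 1 in the blocked fit), and their part in the rise of the mitotic genes was not tested. Other sums also lay apart. At 39 weeks macrophage sums were 5571 to 8657 on HFD and 3634 to 4518 after CRD. Stellate, pericyte and fibroblast sums were 2254 to 3836 and 1425 to 2131 there, and endothelial sums 10430 to 14640 and 7453 to 10420, barely apart. At 18 weeks Schwann and neural sums were 283 to 366.5 and 392.3 to 455.4. Endothelial markers (12 tested) had 1 higher at 18 weeks and 1 lower at 39 weeks, macrophage markers (7 tested) had 2 higher and 1 lower at these ages, and of 7 tested T- and B-cell markers 1 rose at 18 weeks. With the block 0 endothelial markers passed at 18 weeks and 1 fell at 39 weeks, 1 macrophage marker fell at each age, and no T- or B-cell marker passed. Ptprc, which marks leukocytes, had group means of 3.25 to 4.33, under the limit of the filter. Of 10 beta-cell markers 8 fell at 18 weeks and 5 at 39 weeks (6 and 5 in the blocked fit), beside the fall of Ccnd2, and their part in it was not tested. Markers of other islet cells also fell. Of 5 PP-cell markers 2 fell at 18 weeks and 0 at 39 weeks (1 and 0 in the blocked fit). Of 4 tested delta-cell markers 1 fell at each age in both fits. Of 5 tested alpha-cell markers 1 rose at 18 weeks, and 1 rose and 1 fell at 39 weeks. With the block 1 alpha-cell marker rose and 2 fell at 18 weeks, and 1 rose and 1 fell at 39 weeks. The summed intensity of beta-cell markers had medians of 437700 on HFD and 439100 after CRD at 18 weeks, and 424100 and 438800 at 39 weeks. That sum includes Ins2, which stood at 17.943 on every CRD array and at a median of 17.943 in both HFD groups. This is the highest intensity of the data (252100), which quantile normalization makes the same on every array. Ins2 could not read higher, so the sum says little about beta-cell content.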

How the data were processed

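Each sample was total islet RNA of 1 mouse on a 1-colour array. The authors deposited a linear intensity for each of 59448 probes on each array. The submitters' processing notes name Agilent Feature Extraction 11. Sorted values were identical in all 20 columns, which is the result of quantile normalization before deposit. How background was handled and which probes were detected is not given. Per the labels' protocols, first strands were primed with oligo-dT alone or mixed with random primers, without saying which for which array.

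Intensities were used as log2. Probes were named through the platform table (30010 with 1 symbol, 0 with several, 29438 with none), and the probe with the highest mean stood for a gene. The lowest 30% of 26159 genes by mean were left out. Gene coordinates and promoters are from RefSeq tables of GRCm38.p6. limma 3.58.1 in R 4.3.3 (lmFit, eBayes) was fitted to the 4 groups on all 20 arrays, and p-values were adjusted over 18311 genes (Benjamini-Hochberg). The fit was tested on simulated data. The number of arrays limits the precision. The members, the gene lists and the array sets were chosen with earlier results of these data known. Named genes were the members and Mki67, up to 3 called genes with the largest change per list and contrast (up to 1 with the smallest p where none passed), and the 5 genes most like Cdk1 and Ccnd2. Ptprc and Cdk6 were named after their values were seen. Alternatives were other filters, an offset of 16, median centring, mean of probes, a trended and robust spread, 2 groups only, the array set as a block, set A alone, a replicate block and leaving out each array.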

Additional observations from a re-analysis of the deposited data

Results flagged for a closer look

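Of 36 group and gene combinations, 3 held an array far from the other 4 of its group, where chance gives about 1 in 20. Ccnd2 was at 12.19 in CRD_18wk replicate 2, beside 12.83 to 13.06 in the others. Ccnd3 was at 10.36 on the same array, beside 10.92 to 11.12. That array is the only one of its group in array set A. Cdk2 was at 6.74 in HFD_39wk replicate 4, beside 7.62 to 7.91, and that array is the only one of its group in set C.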

How the results depend on the processing

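No called member changed direction under the alternatives tried; Ccne2 was not run without each array. The count of members called was 6 at 18 weeks and 5 at 39 weeks. With the lowest 50% of genes left out it was 2 and 1, since fewer members were tested there. Leaving out each array gave 5 to 6 at 18 weeks and 5 at 39 weeks. Between 39 and 18 weeks after CRD the count was 0. It was 2 with only the 2 groups compared (Ccnd1 -0.49, adjusted p = 0.0416; Ccnd3 -0.70, adjusted p = 0.040), 1 with an offset of 16 and no filter (Ccnd1 -0.47, adjusted p = 0.0497), and 0 to 2 when each array was left out. Over all genes 4824 of 18311 were called with only the 2 groups compared, and 55 of 26159 with that offset and no filter. On HFD the count of members was 0 when each array was left out and 1 (Ccne2) with the array set block and no filter. Both settings that combine another choice with no filter were chosen after seeing the data. The causes were not tested.

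Over all alternatives the adjusted p of Ccnd1 after CRD between ages ran from 0.0143 to 1, that of Ccnd3 from 0.020 to 1, and that of Ccne2 on HFD from 0.0473 to 0.112. At 18 weeks it ran from 0.00369 to 0.77 for Ccnd3 and from 0.00288 to 0.0621 for Ccne2. The rise of Ccnd3 at 18 weeks did not pass with only the 2 groups compared (0.83, adjusted p = 0.0653) or in set A alone (0.44, adjusted p = 0.77). In set A alone Ccnd2 did not pass at 18 weeks (-1.60, adjusted p = 0.103) or 39 weeks (-1.15, adjusted p = 0.0506). The labels do not say whether replicate numbers pair mice. Correlations of deviations between arrays of the same number ran from -0.85 to 0.16 at 18 weeks and from -0.50 to -0.08 at 39 weeks. The lowest set a set B array against a set A array (replicate 2 at 18 weeks), so these values cannot exclude pairing. The replicate block changed no call of a member, with 6 and 5 called.

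Over all genes, 4565 were called at 18 weeks, 2306 with only the 2 groups compared, 2355 with the array set block, 180 in set A alone and 2614 (without HFD_18wk replicate 4) to 8400 (without HFD_18wk replicate 2) when 1 array was left out. At 39 weeks these were 1528, 2799 with that block, 647 in set A alone and 1004 with the replicate block or without HFD_39wk replicate 1. For age after CRD they were 5, and 4824 with only the 2 groups compared and 6466 without CRD_18wk replicate 2. For age on HFD they were 17, and 0 to 283 without each array, and for the difference of the diet effects 0, and 3876 without HFD_18wk replicate 2. Median centring moved log2 changes by at most 0.08. Without detection flags, levels near the lowest intensity of 1.466 cannot be told from background.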

Other observations

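Cdk6, the other kinase partner of the D-type cyclins, was below the filter on dim genes and was singled out after its values were seen. Its log2 intensity was 0.65 to 1.96 in HFD_18wk and 0.64 to 0.89 in HFD_39wk, near the lowest value of the table. After CRD it was 4.79 to 5.83 at 18 weeks and 3.32 to 4.64 at 39 weeks, with no overlap with HFD at either age or between the ages. In limma without the filter the change was 4.22 ± 0.29 (SE; adjusted p = 2.79e-08) at 18 weeks and 3.42 ± 0.29 (adjusted p = 4.16e-07) at 39 weeks. In the fit with array set terms it was 3.90 and 3.53, and with an offset of 16 before the log 1.66 and 0.94, so the size rests on the unknown background. After CRD it was lower at 39 than at 18 weeks by 1.26 (SE 0.29, adjusted p = 0.0512), by 0.76 with the block (adjusted p = 1), and by 0.78 with the offset (adjusted p = 0.016). Cdk4, its close relative, was at 10.03 ± 0.82 (SD, n = 5) in HFD_18wk, 10.54 ± 0.34 in CRD_18wk, 10.39 ± 0.40 in HFD_39wk and 10.11 ± 0.18 in CRD_39wk. Its changes after CRD were 0.51 ± 0.30 (SE; adjusted p = 0.199) and -0.28 ± 0.30 (adjusted p = 0.677).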
